A study of Mus musculus with 18 samples.

Results

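The 76 genes described here encode the proteins of the cytosolic ribosome and were read in LT-HSCs of the mouse, long-term haematopoietic stem cells that sustain blood production for life. They were chosen by symbol alone, as the rows named Rps or Rpl with a number and an optional final letter, together with Rplp0, Rplp1, Rplp2 and Rpsa. A member also needed at least 10 counts in 3 libraries. The rule found 76 of the 21003 symbols in the table, 30 for the small subunit and 46 for the large subunit. All 76 were among the 11226 genes tested, so none was lost to the filter on low counts. Rps3a1, Fau and Rack1 encode ribosomal proteins too but have names outside the rule, and their values are given separately.

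Each library came from 100 sorted LT-HSCs, and the series sets culture pH against stem cell potential and polyamines. There were 6 libraries in each of 3 groups: 48 h of culture at pH 6.9, 48 h of culture at pH 7.4, and no culture (fresh cells, pH 7.4). The mice were 8 to 12 weeks old, and the labels call them B6.SJL in one field and C57 B6 wild type in another. Cells grew at 3% oxygen in IMDM with 10% serum and 3 cytokines at 50 ng/ml (thrombopoietin, G-CSF and SCF). The labels give 6 individual mice, whose numbers recur in each group. The first sequencing index follows group and mouse number: mice 1, 3 and 5 of a group share 1 index and mice 2, 4 and 6 another. Each of these 6 sets of group and parity therefore has an index of its own, and within odd or even mice the pH and the index cannot be told apart.

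A ribosome is built from ribosomal RNA and one copy of nearly every protein, so cells make the proteins of both subunits in matched amounts. Most of this matching takes place on protein that is already made, because unassembled ribosomal proteins are degraded. Their messenger RNAs are short, abundant and stable. In mammals they typically begin with a cytosine followed by a run of pyrimidines, the 5′ terminal oligopyrimidine (TOP) tract, through which mTORC1 and LARP1 control whether they are translated or stored. LT-HSCs make protein at a low rate, and inherited loss of 1 copy of several ribosomal protein genes causes Diamond-Blackfan anaemia in humans.

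Totals ranged from 1640817 to 7508120 counts in the 15 libraries used, which detected 11225 to 12792 genes. Fresh mouse 1 held 6311 counts, and fresh mouse 4 and pH 6.9 mouse 3 detected 9408 and 8925 genes. These 3 libraries were left out, and the count of members called with all 18 is given for each comparison. The 13 genes listed for LT-HSCs, of which Cd34 and Flt3 are low in these cells, were summed in CPM (counts scaled to 1e+06 per library). The sums were 1910 to 2183 in the odd and 2520 to 3712 in the even mice at pH 6.9. They were 2528 to 3612 in the odd and 1423 to 2192 in the even mice at pH 7.4, and 1369 to 1993 in fresh cells. Within each culture pH the sums of odd and even mice did not overlap, and at pH 6.9 this rested on Cd34. Cd34 had 733 and 768 CPM in odd mice and 1306, 2006 and 1279 CPM in even mice at pH 6.9. The odd mice at pH 6.9, high in the members below, had the lower sums. At pH 7.4 the even mice had the lower sums, and their shares of counts in members overlapped those of the odd mice. Neutrophil granule markers reached 1621 to 4791 CPM in the even mice at pH 7.4, against 29.5 to 165 CPM in all pH 6.9 libraries and 40.7 to 71.3 CPM in the odd mice at pH 7.4, and 72.3 to 5011 CPM in fresh cells. MHC class II genes, markers of antigen-presenting cells, reached 128 to 287 CPM in the odd mice at pH 6.9, against 15.95 to 25.04 CPM in the even mice at pH 6.9, 12.5 to 27.9 CPM at pH 7.4, and 31.9 to 233 CPM in fresh cells. For T cells, 2 of 5 markers were at 0 in every library. The part of these markers in the results below was not tested, and fewer cells of a type and less RNA per cell cannot be told apart in bulk libraries.

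The starts of 8 members are printed because the TOP tract is the sequence feature that this family is best known for. Each line runs from 20 bases before the annotated transcript start to 25 bases after it, in the direction of transcription. Capitals mark the cytosine at the annotated start and the unbroken run of pyrimidines after it. The sequences are from RefSeq on GRCm38.p6.
Rpl15, chr14:18270962-18271006, minus strand: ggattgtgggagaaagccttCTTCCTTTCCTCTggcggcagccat
Rpl35, chr2:39005107-39005151, minus strand: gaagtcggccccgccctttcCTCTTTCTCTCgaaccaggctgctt
Rps10, chr17:27635220-27635264, minus strand: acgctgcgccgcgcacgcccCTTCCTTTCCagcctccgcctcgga
Rps6, chr4:86857343-86857387, minus strand: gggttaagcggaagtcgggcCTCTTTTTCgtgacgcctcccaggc
Rps18, chr17:33955641-33955685, minus strand: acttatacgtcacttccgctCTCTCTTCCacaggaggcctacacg
Rpl38, chr11:114668560-114668604, plus strand: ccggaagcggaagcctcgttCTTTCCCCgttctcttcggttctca
Rpl35a, chr16:33056462-33056506, plus strand: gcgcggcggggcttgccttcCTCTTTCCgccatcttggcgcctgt
Rplp2, chr7:141447631-141447675, plus strand: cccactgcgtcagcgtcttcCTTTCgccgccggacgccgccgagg

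The capital run was 13 bases in Rpl15, 11 in Rpl35, 10 in Rps10 and 5 in Rplp2. Promoter sequence was matched for 56 of the 76 members. A cytosine followed by at least 4 pyrimidines stood exactly at an annotated start in 13 of these 56 (23.2%), against 261 of 9102 tested genes with a promoter sequence (2.87%). A run of at least 8 pyrimidines on the transcribed strand lay within 50 bases of the start in 48 of the 56 (85.7%), against 36.6% of those genes. An annotated start can lie some bases away from the one used in these cells, and a member without the motif may still carry the tract. Of the 8 printed members, 3 (Rpl15, Rps10 and Rps6) are among the members that differed between the pH values in odd mice. Over all 76 members 34 did so, all higher at pH 6.9, and over all tested genes 4.93% were higher.

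The level of a member was compared with others as CPM per kilobase of its median annotated transcript, on the linear scale. The median over members was 664 CPM per kb, with 736 for small-subunit members and 627 for large-subunit members, and the range ran from 37.3 to 2782, or 74.6-fold. The highest was Rplp0, the base of the acidic stalk that recruits translation factors, with a median of 2782 CPM per kb and a range of 1679 to 3871 over the 15 libraries. Rpl13 with 2114 and Rps19 with 1647 CPM per kb were also among the highest. The lowest 5 were Rpl12 with 37.3, Rpl22 with 53.4, Rpl5 with 69.0, Rps20 with 78.2 and Rpl27a with 85.9 CPM per kb.

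These levels depend on how reads were assigned and on which transcript is annotated. Rps20 has a coding length of 357 bases and a median annotated transcript of 3706 bases, and Rpl22 has 384 and 2048 bases. Per kilobase of the longest transcript, Rplp0 had 1750 CPM and Rps19 817. Ribosomal protein genes have many processed pseudogenes in the mouse genome, whose share of the reads can lower a member's count. The table has rows for 5 such pseudogenes of members, which held between 2 and 75 counts each over the 15 libraries, where Rps19 held 62384. Neighbours in the order of levels could overlap: Rplp0 spanned 1679 to 3871 CPM per kb and Rpl13 1650 to 2778.

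**Figure D1:**
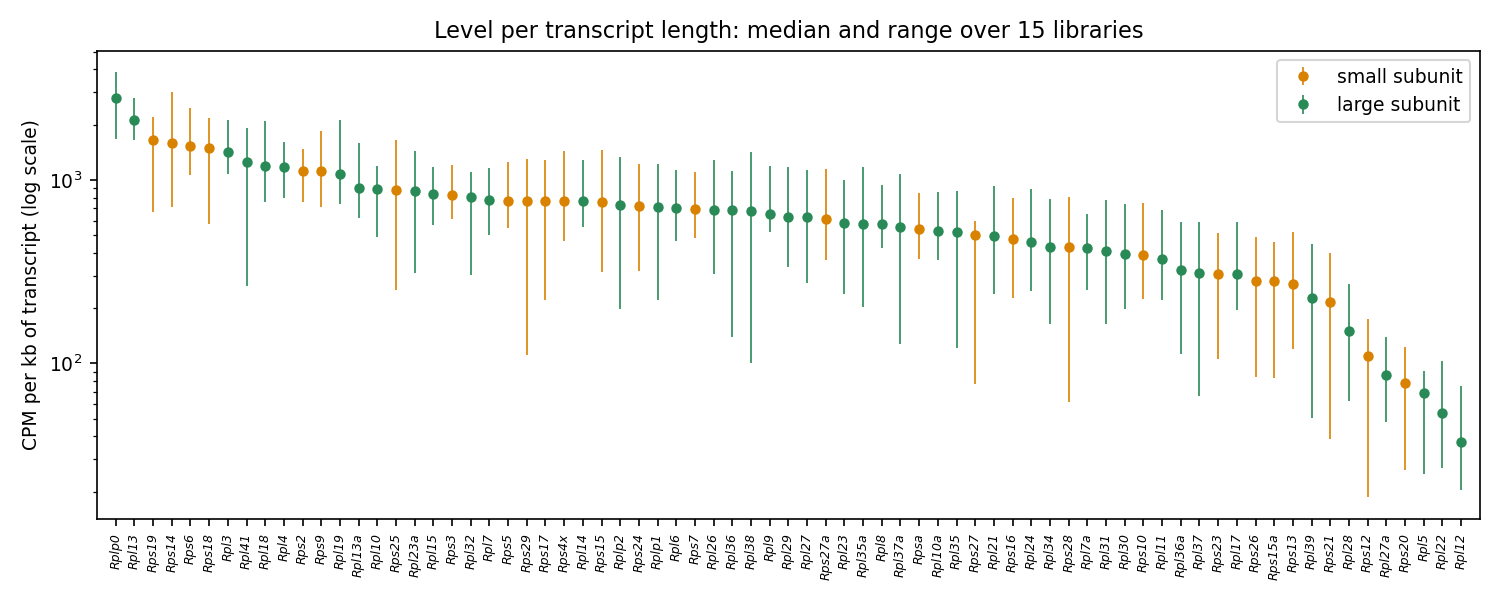
CPM per kb of transcript (log axis) for 73 members, ordered from highest to lowest, with small-subunit members in orange and large-subunit members in green. Points are medians and lines the range over 15 libraries; the quartiles over all 76 members are 406 and 856 CPM per kb, and the levels run from 37.3 (Rpl12) to 2782 (Rplp0).

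Together the 76 members took between 2.73% and 6.31% of the counts of a library. At pH 6.9 the share was 5.57% and 6.00% in odd mice 1 and 5, and 3.67%, 2.73% and 3.15% in even mice 2, 4 and 6. At pH 7.4 it was 3.18%, 3.96% and 3.74% in odd mice 1, 3 and 5, and 4.19%, 2.92% and 4.37% in even mice. In fresh cells it was 3.77% and 4.96% in odd mice 3 and 5, and 6.31% and 5.33% in even mice 2 and 6. The 2 libraries of odd mice at pH 6.9 lay above all 9 other cultured libraries of the 15, and the odd and even mice at pH 6.9 did not overlap.

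The libraries left out had shares of 4.49% for pH 6.9 mouse 3, 4.54% for fresh mouse 4 and 3.26% for fresh mouse 1, the last with a 95% Wilson interval of 2.85% to 3.73% that covers counting error only. In fresh mouse 1, 21 members had no count. The mean share was 4.22% ± 1.47 at pH 6.9 (SD, n = 5), 3.73% ± 0.571 at pH 7.4 (n = 6) and 5.09% ± 1.05 in fresh cells (n = 4). The group ranges overlapped, and the spread at pH 6.9 was larger than the distance between the means of the 2 cultured groups.

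**Figure D2:**
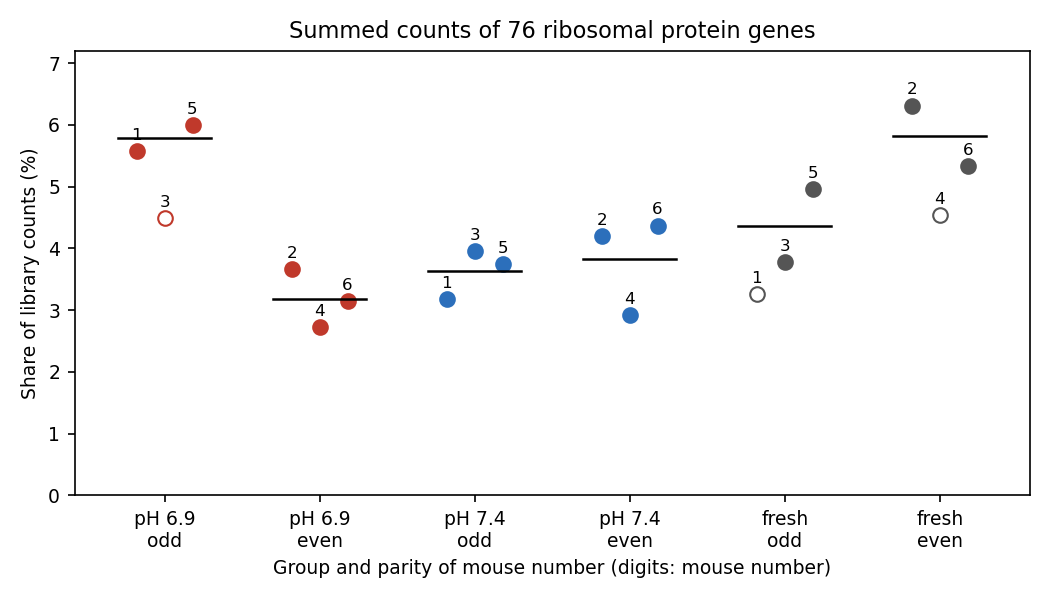
Share of library counts (%) taken by the 76 members in each library, by group and parity of the mouse number, with pH 6.9 in red, pH 7.4 in blue and fresh in grey. Filled points are the 15 libraries used, open points the 3 left out, lines the means of the filled points, and digits the mouse numbers; at pH 6.9 the filled odd points (5.57% and 6.00%) lie above the even ones (2.73% to 3.67%).

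Across all mice, no member passed the test between pH 6.9 and pH 7.4. Of the 76, 0 passed an adjusted p of 0.05 with edgeR's quasi-likelihood test and Benjamini-Hochberg adjustment over all genes, where 0% of the 11226 genes passed. None had an unadjusted p under 0.05, against 6.24% of all genes, and DESeq2 called 0. The fitted log2 fold change was positive in 72 members, with a median of 0.24, against 52.5% of all genes and a median of 0.02. With all 18 libraries 0 were called, 74 were positive and the median was 0.37.

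The member with the smallest p was Rpl10a, a large-subunit protein near the exit site for used transfer RNA, with a log2 fold change of 0.32 ± 0.22 (SE), an unadjusted p of 0.160 and an adjusted p of 0.863 by edgeR. Rpl28 (0.37), Rpl17 (0.36), Rpl37a (0.50) and Rpl9 (0.28) came next. The 4 negative values were Rps12 with -0.17, Rpl5 with -0.11, Rpl10 with -0.08 and Rpl7a with -0.04, each smaller than its standard error of 0.37, 0.34, 0.22 and 0.25. Rpl10, which joins the large subunit last and is needed for its activation, averaged 587 ± 169 CPM at pH 6.9 (SD, n = 5) and 622 ± 155 CPM at pH 7.4 (n = 6). Rpl3, beside the catalytic centre, averaged 1164 ± 271 CPM at pH 6.9 and 1141 ± 152 CPM at pH 7.4.

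Against fresh cells all 76 members had a negative log2 fold change at both pH values, and 0 passed the adjusted threshold in either comparison. The 2 comparisons share the fresh libraries and are not independent. For pH 7.4 against fresh the median was -0.61, against 0.03 over all genes, with 0% of all genes past the adjusted threshold and DESeq2 calling 0 members. At an unadjusted p under 0.05 there were 24 members, against 5.7% of all genes. For pH 6.9 against fresh the median was -0.36, against 0.03 over all genes, with 0% of all genes past the adjusted threshold and DESeq2 calling 0 members. At an unadjusted p under 0.05 there was 1 member (Rps12), against 5.74% of all genes. With all 18 libraries both counts stayed at 0, the medians were -0.57 and -0.17, and 2 and 6 members were positive.

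The 5 members with the smallest p for pH 7.4 against fresh were Rpl22, Rpl39, Rpl23, Rps25 and Rpl28, each at an adjusted p of 0.775. Rpl22, whose loss in mice blocks the development of a T-cell lineage, averaged 93.8 ± 27.0 CPM at pH 7.4 (n = 6) and 166 ± 43.3 CPM in fresh cells (n = 4), a log2 fold change of -0.82 ± 0.29. Rpl39, a very small protein at the peptide exit tunnel, had -1.15 ± 0.42, Rps25, which is needed for initiation at some internal entry sites, -0.91 ± 0.36, Rpl23 -0.77 ± 0.31 and Rpl28 -0.75 ± 0.30.
Rps12, a small-subunit protein of the beak, averaged 36.4 ± 23.1 CPM at pH 6.9 (n = 5) and 72.1 ± 14.9 CPM in fresh cells, -0.99 ± 0.41, with an adjusted p of 0.828.

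How far a member lay below fresh cells went with its length. Across the 76 members, Spearman's rho between median transcript length and log2 fold change was 0.55 for pH 7.4 against fresh and 0.51 for pH 6.9 against fresh, against 0.03 and 0.02 over 10963 tested genes. With the coding length it was 0.83 and 0.75 over the members. These are descriptions across genes that share libraries, and genes are not independent replicates. For pH 7.4 against fresh, the 25 members with a median transcript under 600 bases had a median log2 fold change of -0.75, the 37 of middle length -0.52 and the 14 of at least 1000 bases -0.39. All tested genes in those length classes had -0.21, -0.04 and 0.05.

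The ratio of summed counts of the 25 short to the 14 long members set 1 mouse apart. In mouse 4 the ratio was 0.702 at pH 6.9, 0.483 at pH 7.4 and 0.822 in fresh cells. In the other mice it was 0.952 to 1.32 at pH 6.9, 1.14 to 1.39 at pH 7.4 and 1.30 to 1.59 in fresh cells, so mouse 4 was the lowest in each group. The same ratio was taken over 363 short and 8937 long genes outside the members. Mouse 4 was the lowest there at pH 6.9 (0.0544) and at pH 7.4 (0.0491). In fresh cells it had 0.0747 and was not the lowest, with fresh mouse 3 at 0.0582.
At pH 7.4 mouse 4 was the lowest of 6 libraries for 24 of the 25 short members and for 6 of the 14 long ones, and at pH 6.9 it was the lowest of 5 for 25 of 25 and 6 of 14.

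Rpl38, one of the smallest large-subunit proteins and one that mouse embryos need to translate certain Hox messages, is an example. It had 459 and 522 CPM in odd mice and 193, 37.0 and 124 CPM in even mice 2, 4 and 6 at pH 6.9, against 205, 138 and 175 CPM in odd mice and 287, 43.6 and 287 CPM in even mice 2, 4 and 6 at pH 7.4. Mouse 4 was the lowest of its group both times. Rpl5, with a median transcript of 1439.5 bases, had 43.4 CPM in mouse 4 at pH 6.9 and 104.7 CPM in mouse 4 at pH 7.4, between the other 2 even mice of each group.
With mouse 4 left out at both pH values, a check added after seeing the data, rho with the median transcript length was 0.46 for pH 7.4 against fresh and 0.40 for pH 6.9 against fresh, and 0 members were called in either.

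**Figure D3:**
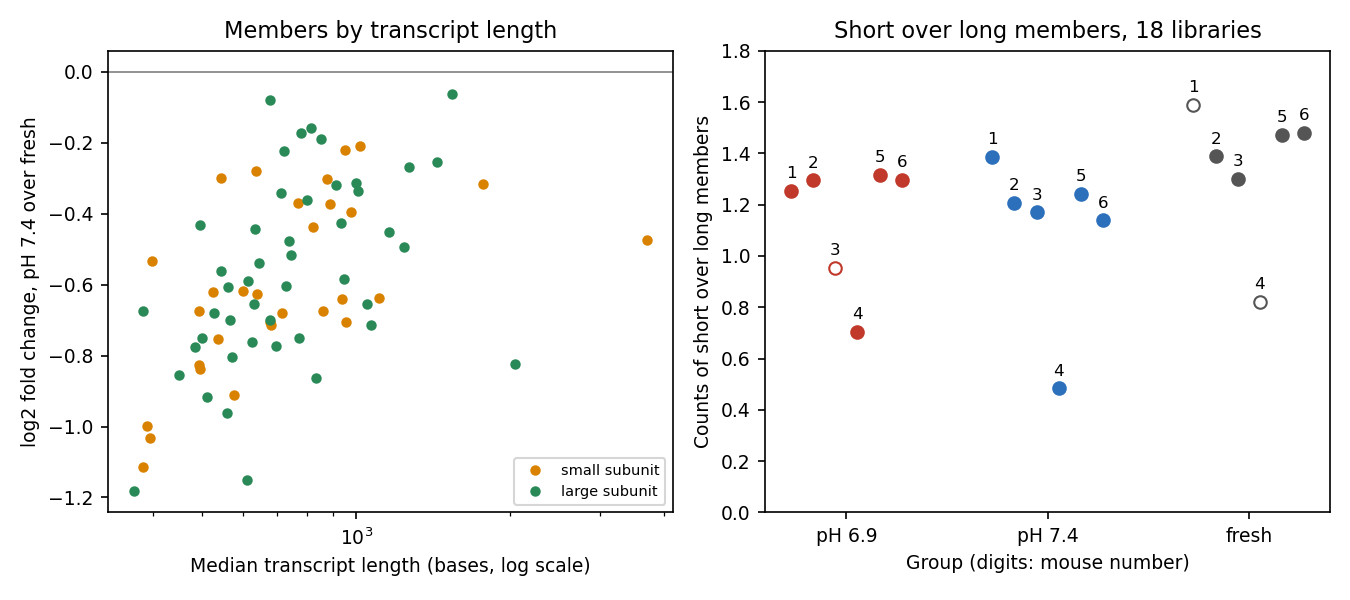
Left, log2 fold change of pH 7.4 over fresh against the median transcript length in bases (log axis) for the 76 members, small subunit in orange and large subunit in green; shorter members lie lower (rho 0.55). Right, summed counts of 25 short members over those of 14 long members in all 18 libraries, by group with mouse numbers as digits and open points for the libraries left out; mouse 4 is lowest in each group, at 0.702, 0.483 and 0.822.

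Within odd mice, members were higher at pH 6.9 than at pH 7.4, and 34 of 76 rose, 13 of 30 in the small subunit and 21 of 46 in the large subunit, with none lower (2 libraries against 3, adjusted p under 0.05 by edgeR). Of all tested genes 4.93% rose. The log2 fold change was positive in 75 of 76 members with a median of 0.89, against -0.08 over all genes, and in 70 members every pH 6.9 library lay above every pH 7.4 library, against 19.1% of all genes. DESeq2 called 40 members, and 58 were called with mouse 4 left out of the fit. With all 18 libraries, which adds pH 6.9 mouse 3, the median was 0.90 and 0 members were called, where 58 of all 10745 genes were. Without 1 library the count lay between 8 (without pH 6.9 mouse 5) and 29, with 10 without pH 7.4 mouse 1 and 11 without pH 6.9 mouse 1.

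Within even mice the direction was the other one: 6 of 76 members fell at pH 6.9 relative to pH 7.4 and none rose (3 libraries against 3), where 3.55% of all genes fell. The 6 were Rpl5, Rpl29, Rpl7a, Rpl19, Rplp0 and Rpl7, all of the large subunit, and all 6 were among the 34 that rose in odd mice. The log2 fold change was negative in 68 members and positive in 8, with a median of -0.40, against 0.07 over all genes. In 19 members every pH 6.9 library lay below every pH 7.4 library, against 15.5% of all genes. DESeq2 called 12 members, all 18 libraries gave 0 (and 0 of all 10745 genes), and leaving out mouse 4 gave 4. Of the 6 named, Rpl5 and Rpl29 passed without mouse 4, and Rpl7a, Rpl19, Rplp0 and Rpl7 did not. Without 1 library the count lay between 1 (without pH 6.9 mouse 4 or 6 or pH 7.4 mouse 6) and 15 (without pH 7.4 mouse 4), with 3 without pH 7.4 mouse 2.

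The difference between these 2 pH changes was itself tested in the same fit. It was positive, odd minus even, in 74 of 76 members and past the threshold in 43, against 8.51% of all genes, with a median of 1.24 on the log2 scale. DESeq2 called 46 members and the fit without mouse 4 called 64, while all 18 libraries called 2 members and 159 of all 10745 genes. Leaving out 1 library gave 29 to 62.
Among the largest were Rpl5 with 2.52 ± 0.35, Rpl29 with 1.98 ± 0.29, Rpl27 with 1.95 ± 0.40, Rps12 with 1.92 ± 0.59, Rpl31 with 1.86 ± 0.47 and Rpl30 with 1.77 ± 0.40 (log2, SE). Rps27 with -0.20 ± 0.83 had the opposite sign, within its standard error.

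**Figure D4:**
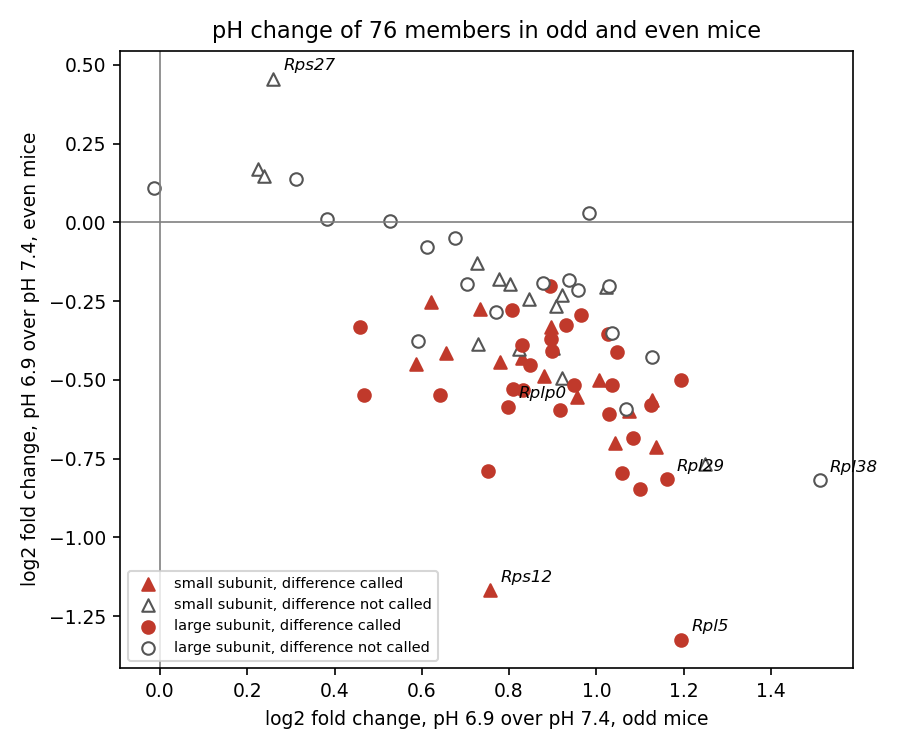
Log2 fold change of pH 6.9 over pH 7.4 in odd mice (horizontal) against that in even mice (vertical) for the 76 members; triangles are small-subunit and circles large-subunit members. Red marks the 43 members whose difference between odd and even mice passed the threshold; most members lie to the right of 0 and below 0, with Rpl5 lowest at -1.33 and Rps27 highest at 0.46 on the vertical axis.

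Rpl5 and Rpl11 form, with 5S ribosomal RNA, the particle that docks on the large subunit and that binds MDM2 when ribosome assembly fails. Rpl5 (ENSMUSG00000058558.12, chr5:107900502-107909005 on GRCm38, plus strand, with 3 small nucleolar RNA genes inside it) had 113 and 131 CPM in odd mice and 46.7, 43.4 and 40.3 CPM in even mice at pH 6.9. At pH 7.4 it had 35.8, 72.3 and 50.2 CPM in odd mice and 104.1, 104.7 and 117 CPM in even mice, and in fresh cells 72.8 and 99.3 CPM in odd mice and 100.8 and 114 CPM in even mice. The odd mice at pH 6.9 and the even mice at pH 7.4 were high, and the 2 pH values did not overlap within either parity.
It rose by 1.19 ± 0.26 on the log2 scale in odd mice (adjusted p 0.0079 by edgeR) and fell by 1.33 ± 0.24 in even mice (adjusted p 0.0034 by edgeR).
Rpl11 averaged 445 ± 66.7 CPM at pH 6.9 and 239 ± 26.1 CPM at pH 7.4 in odd mice, 0.90 ± 0.28 with an adjusted p of 0.0493 by edgeR. In even mice it averaged 204 CPM at pH 6.9 and 269.9 CPM at pH 7.4, and the libraries overlapped (167 to 270.4 and 162 to 325 CPM).

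Rplp0, Rplp1, Rplp2 and Rpl12 make up the stalk and its base, the site where elongation factors bind. Rplp0 had 3306 and 3182 CPM in odd mice and 1859, 1843 and 1434 CPM in even mice at pH 6.9. At pH 7.4 it had 1511, 2018 and 2066 CPM in odd mice and 2376, 2779 and 2546 CPM in even mice. The highest cultured values were those of odd mice at pH 6.9, and the even mice at pH 7.4 came next. Rplp0 rose by 0.80 ± 0.19 on the log2 scale in odd mice and fell by 0.58 ± 0.17 in even mice. With mouse 4 left out the fall in even mice did not pass (adjusted p 0.174 by edgeR). Rpl12 rose by 1.12 ± 0.31 in odd mice. Rplp1 and Rplp2 had 0.88 ± 0.40 and 1.04 ± 0.48 in odd mice and did not pass, at adjusted p values of 0.180 and 0.197 by edgeR, though their libraries did not overlap. Both are short messages: Rplp2 had 113 CPM in mouse 4 at pH 6.9 and 89.3 CPM in mouse 4 at pH 7.4, and with mouse 4 left out both passed, at 0.0223 and 0.0106.

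Rpl29, a large-subunit protein whose loss in mice slows growth, had 756 and 744 CPM in odd mice and 321, 281 and 217 CPM in even mice at pH 6.9. At pH 7.4 it had 291, 367 and 347 CPM in odd mice and 474, 387 and 578 CPM in even mice. The pH values did not overlap within either parity. Rpl29 rose by 1.16 ± 0.21 in odd mice (adjusted p 0.0028 by edgeR) and fell by 0.82 ± 0.19 in even mice (0.0173). Rpl24, which bridges the subunits, Rpl27 and Rpl30 rose in odd mice by 1.19 ± 0.28, 1.10 ± 0.29 and 1.08 ± 0.30.

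Of 8 members at the rim of the peptide exit tunnel, where nascent chains leave the ribosome, 3 rose in odd mice and 1 fell in even mice, beside 34 and 6 of all 76 members and 4.93% and 3.55% of all genes. Rpl19, one of them, had 1427 and 1364 CPM in odd mice and 666, 565 and 548 CPM in even mice at pH 6.9. At pH 7.4 it had 564, 739 and 746 CPM in odd mice and 888, 799 and 1022 CPM in even mice, so the groups were separate within each parity and in opposite order. Its log2 fold change was 1.03 ± 0.20 in odd mice and -0.61 ± 0.18 in even mice. With mouse 4 left out the change in even mice did not pass (adjusted p 0.135 by edgeR). Rpl4, whose long loop lines the tunnel, had 0.64 ± 0.18 in odd mice, past the threshold, and Rpl31 had 491 and 431 CPM in odd mice and 192, 104 and 168 CPM in even mice at pH 6.9.

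In the small subunit, Rps6, the substrate of S6 kinase, had 2152 and 2028 CPM in odd mice and 1069, 1092 and 1062 CPM in even mice at pH 6.9. At pH 7.4 it had 930, 1295 and 1303 CPM in odd mice and 1340, 1404 and 1595 CPM in even mice. The even mice at pH 6.9 lay close together, below all even mice at pH 7.4. Rps6 rose by 0.83 ± 0.18 in odd mice (adjusted p 0.0082 by edgeR), and in even mice its adjusted p was 0.135. Rps10 rose in odd mice by 1.13 ± 0.30. Rpsa (0.78 ± 0.19), Rps4x (0.90 ± 0.23), Rps27a (1.01 ± 0.27), Rps2 (0.59 ± 0.17) and Rps3 (0.62 ± 0.19) rose as well. With mouse 4 left out, Rps2 and Rps3 did not pass in odd mice (adjusted p 0.0585 and 0.0672 by edgeR). Rps27a is made as a fusion with ubiquitin, and Rps3 lies at the entry of the messenger RNA channel.
Rps14 with 0.80 ± 0.30, Rps19 with 0.24 ± 0.31 and Rps12 with 0.76 ± 0.43 did not pass in odd mice. With mouse 4 left out Rps14 passed (adjusted p 0.0312 by edgeR) and Rps19 did not.

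The members linked in humans to Diamond-Blackfan anaemia were 11 of the small and 9 of the large subunit. In odd mice 2 of the 11 and 5 of the 9 rose, and in even mice none of the 11 and 1 of the 9 (Rpl5) fell. Over all 76 members the counts were 34 and 6, and over all genes the shares were 4.93% and 3.55%. Rps19, the first gene found mutated in that disease, averaged 1307 ± 137 CPM at pH 6.9 and 1109 ± 197 CPM at pH 7.4 in odd mice, and 878 ± 237 CPM at pH 6.9 and 794 ± 318 CPM at pH 7.4 in even mice. Both pairs overlapped.

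A few members had other values than the rest. The 8 positive values in even mice included Rps27 with 0.46 ± 0.55, Rps18 with 0.17 ± 0.29, Rps19 with 0.15 ± 0.28, Rpl32 with 0.14 ± 0.31 and Rpl37a with 0.03 ± 0.53. None passed, and each of these 5 became negative without pH 7.4 mouse 4. Rps27, a short message, had 199, 53.7 and 201 CPM in even mice 2, 4 and 6 at pH 6.9 and 153, 30.7 and 147 CPM at pH 7.4.

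**Figure D5:**
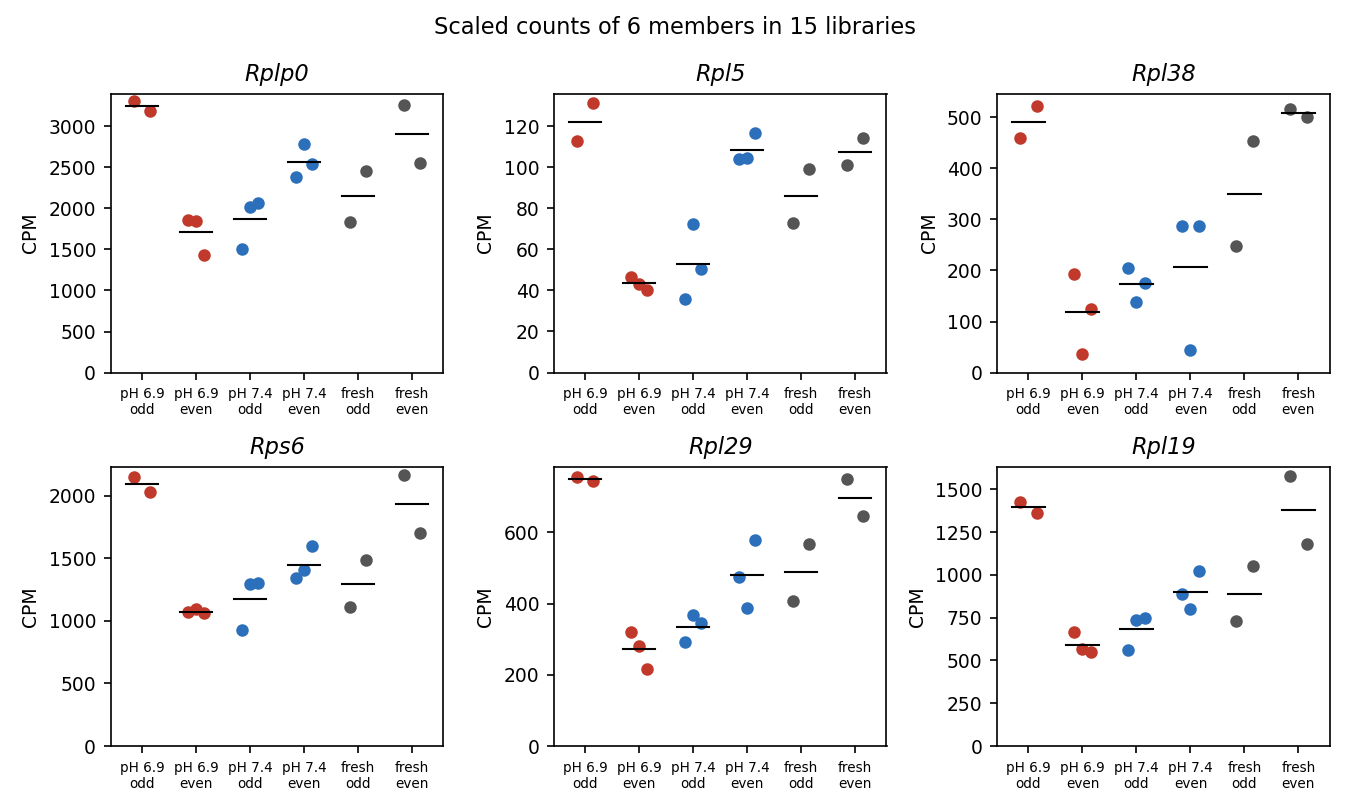
CPM of Rplp0, Rpl5, Rpl38, Rps6, Rpl29 and Rpl19 in the 15 libraries, by group and parity of the mouse number, with lines at the means. In Rplp0, Rpl5, Rps6, Rpl29 and Rpl19 the odd mice at pH 6.9 lie above the odd mice at pH 7.4 and the even mice at pH 6.9 below the even mice at pH 7.4; Rpl38 has a low value in mouse 4 at both pH values (37.0 and 43.6 CPM).

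At a single pH the 2 parities could be compared directly. At pH 6.9 the odd mice were higher than the even mice in all 76 members, with no overlap in any of them, against 20.7% of all genes without overlap in that direction. Of the 76, 51 passed the threshold (18 of 30 small-subunit and 33 of 46 large-subunit members), against 6.64% of all genes, with a median log2 difference of 1.13 against -0.09. DESeq2 called 60, the fit without mouse 4 called 60, and all 18 libraries called 2 with a median of 1.23, where 116 of all 10745 genes were called. Leaving out 1 library gave 22 (without mouse 5 at pH 6.9) to 53, with 33 without mouse 1 and 32 without mouse 6.
Among the largest of those that passed were Rpl31 with 1.58 ± 0.35, Rpl27 with 1.56 ± 0.29, Rps12 with 1.52 ± 0.44, Rpl24 with 1.51 ± 0.28, Rpl5 with 1.496 ± 0.26, Rps13 with 1.47 ± 0.33 and Rpl29 with 1.46 ± 0.21. With mouse 4 left out Rps12 did not pass (adjusted p 0.0681 by edgeR), and the others named did.

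At pH 7.4 the odd mice were lower than the even mice in 51 members and higher in 25, with a median of -0.11. Without pH 7.4 mouse 6 the median was 0.068 with 44 members positive, and without mouse 4 at both pH values it was -0.39 with 8 positive, so this direction rests on pH 7.4 mouse 6. Only Rpl5 passed, with -1.02 ± 0.24 and an adjusted p of 0.0235 by edgeR, where 1.59% of all genes were lower. DESeq2 called 2 members, and Rpl5 no longer passed with all 18 libraries, without mouse 4 or without any 1 of mice 1, 2, 4, 5 and 6 at pH 7.4. Rpl7 (-0.51 ± 0.15), Rpl15 (-0.49 ± 0.17), Rplp0 (-0.46 ± 0.17) and Rpl29 (-0.52 ± 0.19) came next and did not pass.
In fresh cells all 76 members were lower in the odd mice, with a median of -0.46 against 0.04 over all genes. In 53 members every odd library lay below every even one, against 16.5% of all genes. With all 18 libraries the median was -0.65, 2 members were positive and 0 were called. None passed by edgeR, where 0.0534% of all genes passed. DESeq2 called 0, and 18 members had an unadjusted p under 0.05, against 7.54% of all genes. The smallest p values were those of Rpl19 (-0.63 ± 0.22), Rps6 (-0.58 ± 0.20), Rpl7 (-0.48 ± 0.19), Rpl18 (-0.64 ± 0.25) and Rpl7a (-0.56 ± 0.22).

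Position and sequence features were set beside the fold changes. Small nucleolar RNA genes lie inside 29 of the 76, and these hosts had a median log2 fold change of 0.78 in odd mice and -0.44 in even mice, against 0.90 and -0.39 in the other 47. Members with the TOP motif at an annotated start had a median of 0.83 in odd mice, against 0.89 in those with a promoter sequence and no motif. The members lie on 19 chromosomes, 4 of them on the X.

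Ribosomal proteins named outside the rule were read in the same fits. Rack1, the scaffold at the head of the small subunit, averaged 2130 ± 53.5 CPM at pH 6.9 and 950 ± 133 CPM at pH 7.4 in odd mice, and 842 ± 126 CPM at pH 6.9 and 1446 ± 208 CPM at pH 7.4 in even mice. It rose by 1.16 ± 0.19 in odd mice and fell by 0.78 ± 0.17 in even mice on the log2 scale. Rps3a1 rose in odd mice by 0.60 ± 0.19. Fau, which is made as a fusion with a ubiquitin-like protein, passed in neither and was higher in odd than in even mice at pH 6.9, by 1.18 ± 0.34. Of 7 tested paralogues, Rpl36al alone rose in odd mice, by 1.24 ± 0.37, and none passed in even mice. Over all genes 4.93% rose in odd mice, and 3.55% fell and 2.68% rose in even mice.

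Other parts of the translation machinery were counted by list. Of 19 translation factors and other listed genes with TOP messages, 8 rose in odd mice and 8 fell in even mice. Of all genes 4.93% rose in odd mice and 3.55% fell in even mice, and the counts of each list in this paragraph are to be read beside those shares. Npm1, a nucleolar protein that binds ribosomal subunits, had the largest values, with 1.40 ± 0.22 in odd mice and -1.33 ± 0.20 in even mice, followed in odd mice by Eef1d (1.30), Eef1b2 (1.17) and Naca (0.99). Of 26 other initiation factors, 11 rose in odd mice, led by Eif3g (1.25) and Eif4a1 (1.06), and 11 fell in even mice, led by Eif2b1 (-0.92) and Eif2b3 (-0.91). Of 12 tested genes listed as chaperones or placeholders of single ribosomal proteins, 3 rose in odd mice and 3 fell in even mice. Mrto4, a nucleolar relative of Rplp0, did both, with 1.19 ± 0.25 and -1.07 ± 0.23.

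RNA polymerase I, which transcribes the large ribosomal RNA, and its factors had 3 of 15 tested genes that rose in odd mice (Taf1d, Polr1c and Polr1d) and 3 that fell in even mice (Polr1e, Taf1d and Polr1d). The shares over all genes were 4.93% and 3.55%. Among 18 tested genes of mTORC1 and S6 kinase signalling none passed within odd or within even mice. At pH 6.9, Larp1 and Eif4ebp1 of this list were higher in odd than in even mice, by 0.99 ± 0.27 and 0.84 ± 0.20, where 6.64% of all genes were higher. Of 12 p53 targets, Bbc3, Cdkn1a and Mdm2 fell in odd mice and Cdkn1a and Trp53inp1 rose in even mice, where 5.64% of all genes fell in odd mice and 2.68% rose in even mice. Cdkn1a, a cell cycle inhibitor, averaged 96.0 ± 20.2 CPM at pH 6.9 and 279.9 ± 104 CPM at pH 7.4 in odd mice, and 268 ± 37.5 CPM at pH 6.9 and 65.8 ± 10.3 CPM at pH 7.4 in even mice.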

How the data were processed

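RNA was measured in 18 libraries of 100 sorted cells each, made with SMART-Seq v4 and Nextera XT and sequenced as paired 75 bp reads, per the labels' protocols. The table that the authors deposited gives 1 estimated count (expected count) per symbol and library, made with kallisto on mm10 per the submitters' processing notes, and 100% are whole numbers. Labels and headers do not state the version or how transcripts were summed to genes. This kit keeps no strand, so reads of overlapping antisense genes cannot be separated.

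The fits used the 15 libraries with at least 1e+05 counts and 10000 genes detected. Genes passing filterByExpr were scaled by TMM and tested with edgeR 4.0.16 (robust quasi-likelihood, R 4.3.3), with 1 coefficient per group or per set of group and parity. Adjusted p values are Benjamini-Hochberg over all genes tested, called under 0.05. Log2 fold changes carry their SE, and CPM uses TMM-scaled totals. The fit was tested on simulated data. Lengths and coordinates are GENCODE M21 (GRCm38). Floors and intervals cover counting error only, since amplified reads carry no molecular identifiers.

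The members, lists and named genes were chosen with earlier results of these data known. Named members are a set list by role, up to 8 called members per direction with the largest fold (or the 5 with the smallest p), members against the majority sign, and the 5 highest and lowest per length. Some genes that this rule names are not reported here singly, and counts over members include them. Alternatives were DESeq2 1.42.0 and its size factors, no filter, a filter of 5 CPM in 6 libraries, all 18 libraries, pseudogene rows added, the mouse number as a block, the second index as a term, the mean of the odd and even contrasts, the longest transcript for levels, and each library left out in turn. Leaving out mouse 4 was added after seeing the data. For libraries that share a mouse number, deviations from group means correlated between -0.197 and 0.186 (positive in 3 of 12 pairs), and deviations from means of group and parity between -0.083 and 0.138 (positive in 9). Not every pair was over 0.1, so the fits carry no block, although the design text names 6 individual mice. Parity of the mouse number follows the first index in the labels.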

Additional observations from a re-analysis of the deposited data

Results flagged for a closer look

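The change between pH 6.9 and pH 7.4 differed between odd and even mice in 43 members, by the test of the difference itself. Among the largest differences on the log2 scale, odd minus even, were 2.52 for Rpl5, 1.98 for Rpl29, 1.95 for Rpl27, 1.92 for Rps12, 1.86 for Rpl31 and 1.77 for Rpl30. Rpl27 and Rpl31 lie on the large subunit and Rps12 on the small one, so the differences were not limited to 1 subunit. MHC class II genes were high in the odd mice at pH 6.9, the cultured set with the highest shares of members. Neutrophil markers were high in the even mice at pH 7.4. There the shares of members (4.19%, 2.92% and 4.37%) overlapped those of the odd mice at pH 7.4 (3.18%, 3.96% and 3.74%). The part of these markers was not tested.

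Rps4x, the X-linked form of a small-subunit protein, had 455 CPM in pH 7.4 mouse 1, a value that stood further from the other 5 libraries at pH 7.4 than Dixon's criterion allows. It was 1 of 57 groups of values tested this way, and chance flags about 1 in 20.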

How the results depend on the processing

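Counts of members called depended most on which libraries entered. With all 18 libraries, 0 members were called for pH 6.9 against pH 7.4 in odd mice, 0 in even mice, 2 for the difference, 2 for odd against even mice at pH 6.9 and 0 at pH 7.4. Calls over all genes, in the same order and in either direction, were 58, 0, 159, 116 and 0 of 10745. In the main fits they were 1187, 700, 1934, 1494 and 358 of 11226. With no filter on low counts the members called were 63, 14, 67, 71 and 2. Calls over all genes were then 1620, 1042, 2304, 1942 and 792 of 15692. DESeq2 called 12 in even mice and 2 for parity at pH 7.4. Without mouse 4, added after seeing the data, 58 were called in odd mice and 0 for parity at pH 7.4. Leaving out 1 library gave 8 to 29 in odd mice, 1 to 15 in even mice, 29 to 62 for the difference, 22 to 53 at pH 6.9 and 0 to 1 at pH 7.4. The median of odd against even mice at pH 7.4 then ranged from -0.39 to 0.068. The cause was not tested. The pooled comparisons and fresh odd against even mice called 0 members in each alternative run.

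With the replicate block of mouse numbers, 46, 6 and 52 members were called in odd mice, in even mice and for the difference, and 0 in each comparison over all mice. Odd and even mice share no mouse number, but each second index holds 1 odd and 1 even mouse of a group. With the second index as a term, odd against even mice gave 56, 1 and 0 at pH 6.9, at pH 7.4 and in fresh cells.

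Among the named members, signs turned as follows. For pH 6.9 against pH 7.4 over all mice, all 18 libraries gave 0.39 for Rpl5, 0.22 for Rpl10 and 0.16 for Rpl7a, and mouse 4 left out gave 0.098 for Rpl5 and 0.073 for Rpl7a. Leaving out 1 library gave -0.48 to 0.085 for Rps12, -0.43 to 0.032 for Rpl5, -0.25 to 0.0086 for Rpl10 and -0.24 to 0.080 for Rpl7a. In even mice, mouse 4 left out gave -0.0073 for Rpl32 and -0.032 for Rpl37a, which had -0.0055 with no filter. Leaving out 1 library gave -0.029 to 0.86 for Rps27, -0.18 to 0.40 for Rps18, -0.19 to 0.35 for Rps19, -0.23 to 0.37 for Rpl32 and -0.44 to 0.44 for Rpl37a. For the difference, Rps27 had -0.60 to 0.28.

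Each set held 2 or 3 libraries, and whether values reflect pH or the index within a parity cannot be told apart.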
